A study of Mus musculus with 12 samples.

Results

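The mRNAs of the DEAD-box and DEAH-box RNA helicases were followed between polysomal and sub-polysomal RNA. Genes were chosen by name, as Ddx or Dhx followed by a digit, without Ddx3y and without pseudogenes marked as such in the name. This gave 53 of the 55376 genes listed, 36 with a Ddx name and 17 with a Dhx name, and 49 of them passed the filter on low counts. The cells were 4T1, a mouse mammary gland cancer line, carrying either an empty vector (mock) or full-length Mettl7a1 cDNA read from a CMV promoter (METTL7A1), kept as stable transfectants under G418. Whether either transfectant is a single clone is not stated. All cells received cycloheximide at 0.1 mg/ml for 5 min, which holds ribosomes on mRNA, before lysis and a sucrose gradient. Gradient fractions 3 to 7, with free ribosomal subunits and monosomes, were combined as sub-polysomal RNA, and fractions 8 to 11 as polysomal RNA. Each of the 4 groups held 3 libraries, lettered A to C for mock and D to F for METTL7A1. The paper reports biological triplicates for its gradients, but no source ties the letters to them, so p-values measure the spread between these libraries.

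RNA helicases of this family share a core that binds RNA and ATP, and they take their names from a short motif at which ATP is hydrolysed. DEAD-box proteins mostly open short duplexes or clamp RNA locally, whereas DEAH-box proteins move along a strand and pull apart larger RNA and protein assemblies. Between them they serve transcription, splicing, export, ribosome assembly, translation initiation and decay, and a few sense viral RNA.

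The motif that names the family was looked for in the coding sequence of 1 transcript per gene, the one with the longest coding sequence (GENCODE vM21, GRCm38). Codons for DEAD stood in 27 of 36 Ddx genes and codons for DEAH in Ddx11, which encodes a DNA helicase. The other 8 Ddx genes matched only when the codon between E and D or H was left free. Of 16 coding Dhx genes, 8 held DEAH codons, 6 matched only with that codon free, 1 (Dhx29) held DEAD codons and 1 (Dhx32) held no match. In Dhx29 these codons stood at position 3352 of 4095 coding bases, without codons with T as second base just before. The search with the codon free asked for such codons, and it was made only where neither form was found, so not in Dhx29. Such a match describes the letters and is no test of function. The windows below belong to 6 helicases on which the results turn, each 30 bases of coding sequence on the gene's strand, with the 4 codons of the motif in capitals. They are printed because Ddx21, Ddx50, Ddx58 and Dhx9 carry the variant form and Ddx5 and Dhx33 the form that gives the family its name.
Ddx5: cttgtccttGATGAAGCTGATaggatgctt
Ddx21: gttgtcctgGATGAAGTCGACcagatgttg
Ddx50: gttgtgcttGATGAAGTAGATcaaatgtta
Ddx58: atgatatttGATGAGTGTCATaacactagc
Dhx9: gttattgtgGATGAAATTCATgaaagagat
Dhx33: gtcattttgGACGAGGCCCATgagcggact
On GRCm38 these windows lie at chr11:106785184-106785213 (Ddx5), chr10:62591872-62591901 (Ddx21), chr10:62640502-62640531 (Ddx50), chr4:40223876-40223905 (Ddx58), chr1:153468880-153468909 (Dhx9) and chr11:70999799-70999828 (Dhx33), all on the minus strand. Ddx21 and Ddx50 are paralogues and neighbours on chromosome 10, on the same strand with 13733 bases between them.

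Helicase mRNAs were a small share of every library. Total counts lay between 1817520 (mock sub-polysomal A) and 6966156 (mock polysomal C), so that 3 counts equal 1.65 and 0.431 CPM (a count scaled to the library total) in these 2 libraries. The 53 genes together took 0.263% ± 0.0138 (SD, n = 3) of the counts in mock sub-polysomal RNA and 0.491% ± 0.0776 (SD, n = 3) in mock polysomal RNA. In METTL7A1 cells the shares were 0.207% ± 0.00393 (SD, n = 3) and 0.464% ± 0.0268 (SD, n = 3). After TMM scaling they summed in sub-polysomal RNA to 2885 ± 88.0 CPM for mock (SD, n = 3) and 2544 ± 71.9 CPM for METTL7A1 (SD, n = 3). In polysomal RNA the sums were 4092 ± 547 CPM for mock (SD, n = 3) and 4123 ± 206 CPM for METTL7A1 (SD, n = 3). The sub-polysomal sums of the genotypes did not overlap, and the polysomal sums did.

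Per kb of counted exons, the most abundant was Ddx5 with a mean of 90.4 CPM per kb over the 12 libraries, the helicase p68 of transcription and splicing. Ddx56 of ribosome biogenesis followed with 82.0, the export helicases Ddx39 (DDX39A) and Ddx39b (UAP56) with 73.9 and 59.5, and Ddx47 with 50.8 CPM per kb. At the other end of the 49 stood Ddx60, an interferon-induced helicase, with 0.159 CPM per kb. The 4 untested names had next to no reads: the germ cell genes Ddx25 and Ddx43 had 0 counts in all 12 libraries, and Ddx4 and the antisense transcript Dhx58os had 1 count each.

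**Figure D1:**
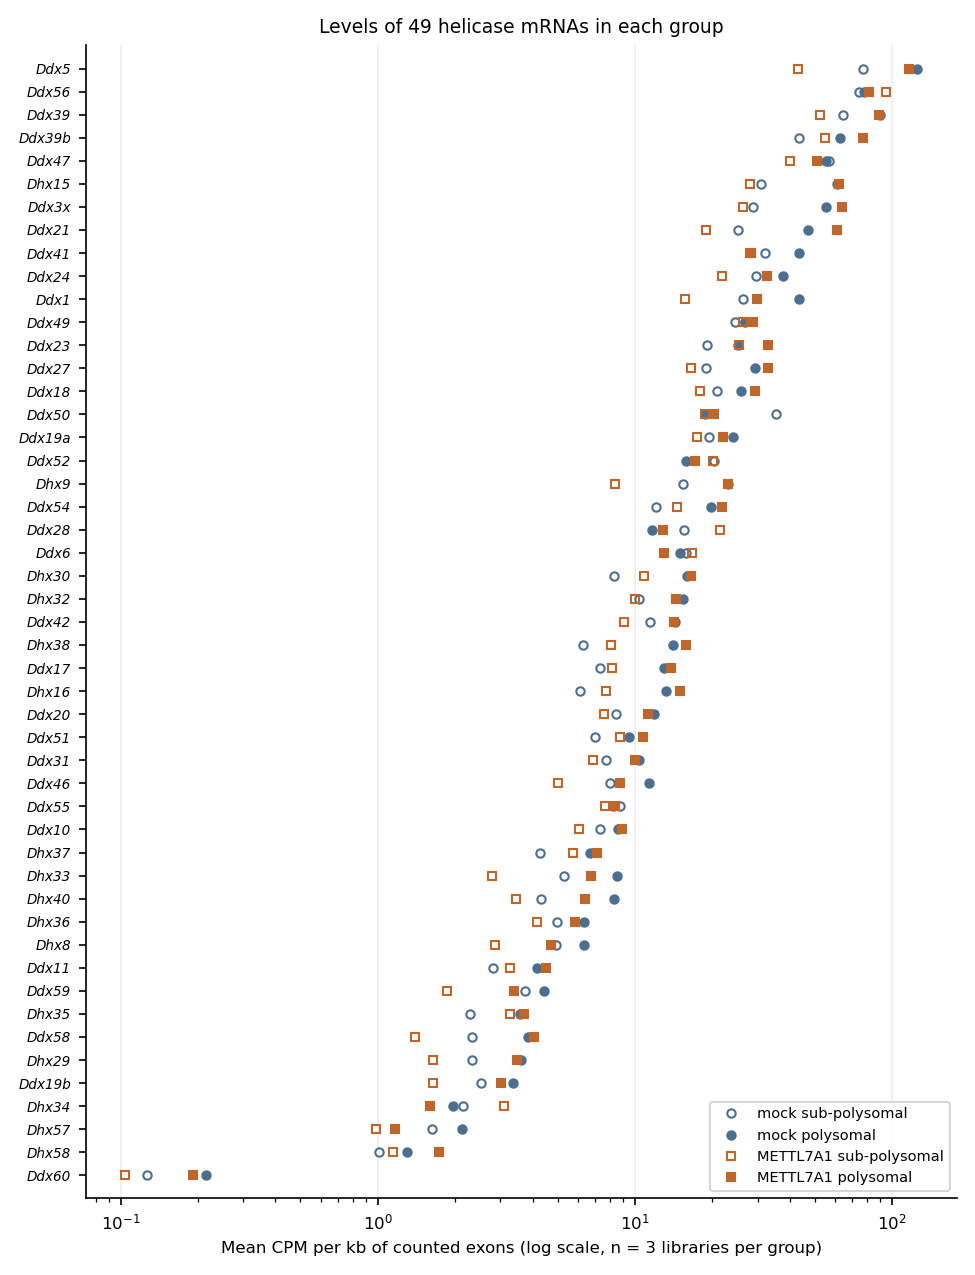
Mean level of each of the 49 tested helicase mRNAs in CPM per kb of counted exons (log axis), 1 symbol per group of 3 libraries. Ddx5 stands at the top with a mean of 90.4 over the 12 libraries and Ddx60 at the bottom with 0.159.

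The label of the cells was checked against marker genes. Mettl7a1 had 4 to 24 counts in mock libraries and 989 to 2436 counts in METTL7A1 libraries. The 4 epithelial markers had at least 402 counts in every library (lowest Cdh1), while the immune, endothelial and adipocyte markers had at most 4. Of the fibroblast markers, Dcn had at most 1 count and Pdgfra between 4 and 43.

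Which helicase mRNAs were higher in polysomal than in sub-polysomal RNA was asked first within each genotype. Each library is scaled by itself, so a change is relative to the other RNAs and gives no share of an mRNA on polysomes. Most were higher in polysomal than in sub-polysomal RNA, in mock and in METTL7A1 cells. In mock cells 29 of 49 were higher at an adjusted p below 0.05, where 23.3% of all tested genes were, and 1 (Ddx50) was lower, where 23.7% of all genes were. In METTL7A1 cells 32 were higher (all genes 30%) and 2 (Dhx34 and Ddx28) were lower (all genes 29.3%). The median log2 change of the 49 was 0.48 in mock and 0.59 in METTL7A1 cells, beside 0.05 and 0.06 over all 12224 genes. Scaling to the Actb count moved the median of all genes in METTL7A1 cells to -0.18. The split in mock cells was then 20 higher and 2 lower, and with METTL7A1 it was 20 higher and 5 lower. No share of all genes is given for these splits. Other contents of the pools differed too: mitochondrial transcripts took 7.36% of sub-polysomal and 1.42% of polysomal counts in mock cells, and 5.79% and 1.19% in METTL7A1 cells, without overlap. The nuclear RNA Neat1 was lower in polysomal RNA (log2 -1.95 in mock and -1.90 in METTL7A1 cells), and a link of either to the helicase mRNAs was not tested.

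The 5 helicases of several nuclear steps (Ddx5, Ddx17, Dhx9, Ddx1 and Ddx20) were all higher in polysomal RNA in both genotypes with TMM scaling. Of the 9 splicing helicases, 7 were higher in mock and 7 in METTL7A1 cells. The 3 orthologues of yeast Prp factors with the largest mock differences were Dhx38 (Prp16), Dhx16 (Prp2) and Dhx15 (Prp43). Dhx38 had 29.3, 32.4 and 22.1 CPM in the mock sub-polysomal libraries A, B and C and 78.4, 49.3 and 59.8 CPM in the polysomal ones. All 3 polysomal values were above the sub-polysomal ones, for a log2 change of 1.18 (standard error 0.20, edgeR's quasi-likelihood test, adjusted p = 0.000109). Dhx16 had a log2 change of 1.10 (standard error 0.15) and Dhx15 one of 0.98 (standard error 0.24), each again with no overlap of the pools in mock cells. In METTL7A1 cells these 3 had log2 changes of 0.97, 0.95 and 1.14.

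Of the 16 ribosome biogenesis helicases, mock cells had 7 higher and 1 lower at an adjusted p below 0.05, and METTL7A1 cells 9 higher and 0 lower. The lower one in mock cells was Ddx50, a nucleolar helicase, and its paralogue Ddx21 went the other way. Ddx50 had 89.2, 89.7 and 89.8 CPM in mock sub-polysomal RNA and 47.4, 47.7 and 47.2 CPM in mock polysomal RNA. In METTL7A1 cells it had 43.8, 47.9 and 50.7 CPM in sub-polysomal and 54.0, 47.1 and 52.7 CPM in polysomal RNA. Mock sub-polysomal RNA alone stood high, and the other 3 groups overlapped. The log2 change between pools was -0.92 in mock cells (standard error 0.13, edgeR's quasi-likelihood test, adjusted p = 1.32e-05) and 0.11 in METTL7A1 cells (standard error 0.13). The mock values lay closer together than counting alone would give, since library A's 158 counts allow 75.8 to 104 CPM (95% exact Poisson interval).

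Ddx21, which acts in rRNA synthesis and processing, had 131, 112 and 113 CPM in mock sub-polysomal and 273, 197 and 195 CPM in mock polysomal RNA. In METTL7A1 cells the values were 81.9, 95.5 and 89.9 CPM and 284, 295 and 287 CPM. The pools were apart in both genotypes. Its log2 change of 1.70 in METTL7A1 cells (standard error 0.15, 3.24-fold, adjusted p = 7.90e-08, edgeR) was past the limit of 1.5 that the study set for total RNA together with an adjusted p below 0.01. The only other of the 49 past this rule in METTL7A1 cells was Ddx58 (RIG-I), the sensor of viral RNA. It had 6.63, 5.96 and 3.59 CPM in sub-polysomal and 15.5, 16.9 and 14.8 CPM in polysomal RNA. Its log2 change was 1.57 (standard error 0.21, adjusted p = 4.12e-06, edgeR). These 2 of 49 stand beside 12.1% of all genes. In mock cells the rule called 0 of 49 with edgeR, DESeq2 and limma-voom, beside 7.55% of all genes with edgeR. At an unadjusted p below 0.05, 32 were higher and 2 lower with edgeR, a level at which no share of all genes is given. Both calls depended on the setting: the log2 change was 1.46 for Ddx21 and 1.33 for Ddx58 with Actb scaling, and 1.33 for Ddx58 without METTL7A1 sub-polysomal F, where Dhx9 (1.52) passed instead.

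Of the 5 helicases of translation and decay, 2 were higher in each genotype, Ddx3x and Dhx29, which both act in initiation. Ddx3x had 155, 95.4 and 156 CPM in mock sub-polysomal and 348, 264 and 168 CPM in mock polysomal RNA. The METTL7A1 libraries had 81.6, 143 and 148 CPM in sub-polysomal and 279, 301 and 321 CPM in polysomal RNA. The pools did not overlap in either genotype, although mock polysomal C came close. The log2 changes were 0.94 in mock (standard error 0.25, adjusted p = 0.00427, edgeR) and 1.27 in METTL7A1 cells (standard error 0.25, adjusted p = 0.000237, edgeR).

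Dhx34, a factor of nonsense-mediated decay, was lower in polysomal than in sub-polysomal RNA in METTL7A1 cells. It had 12.9, 15.6 and 12.7 CPM in sub-polysomal and 6.58, 6.55 and 8.08 CPM in polysomal RNA. No library of 1 pool reached the other, for a log2 change of -0.97 (standard error 0.20, adjusted p = 0.000356, edgeR). In mock cells the pools overlapped, at 9.49 ± 2.15 CPM (SD, n = 3) and 8.66 ± 1.000 CPM (SD, n = 3). Ddx28, of mitochondrial ribosome assembly, had a log2 change of -0.73 in METTL7A1 cells (standard error 0.21, adjusted p = 0.00625, edgeR), with all 3 polysomal values below the sub-polysomal ones. Both lost an adjusted p below 0.05 with offsets for GC content (log2 -0.33 and -0.36), which were added once the data had been looked at.

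**Figure D2:**
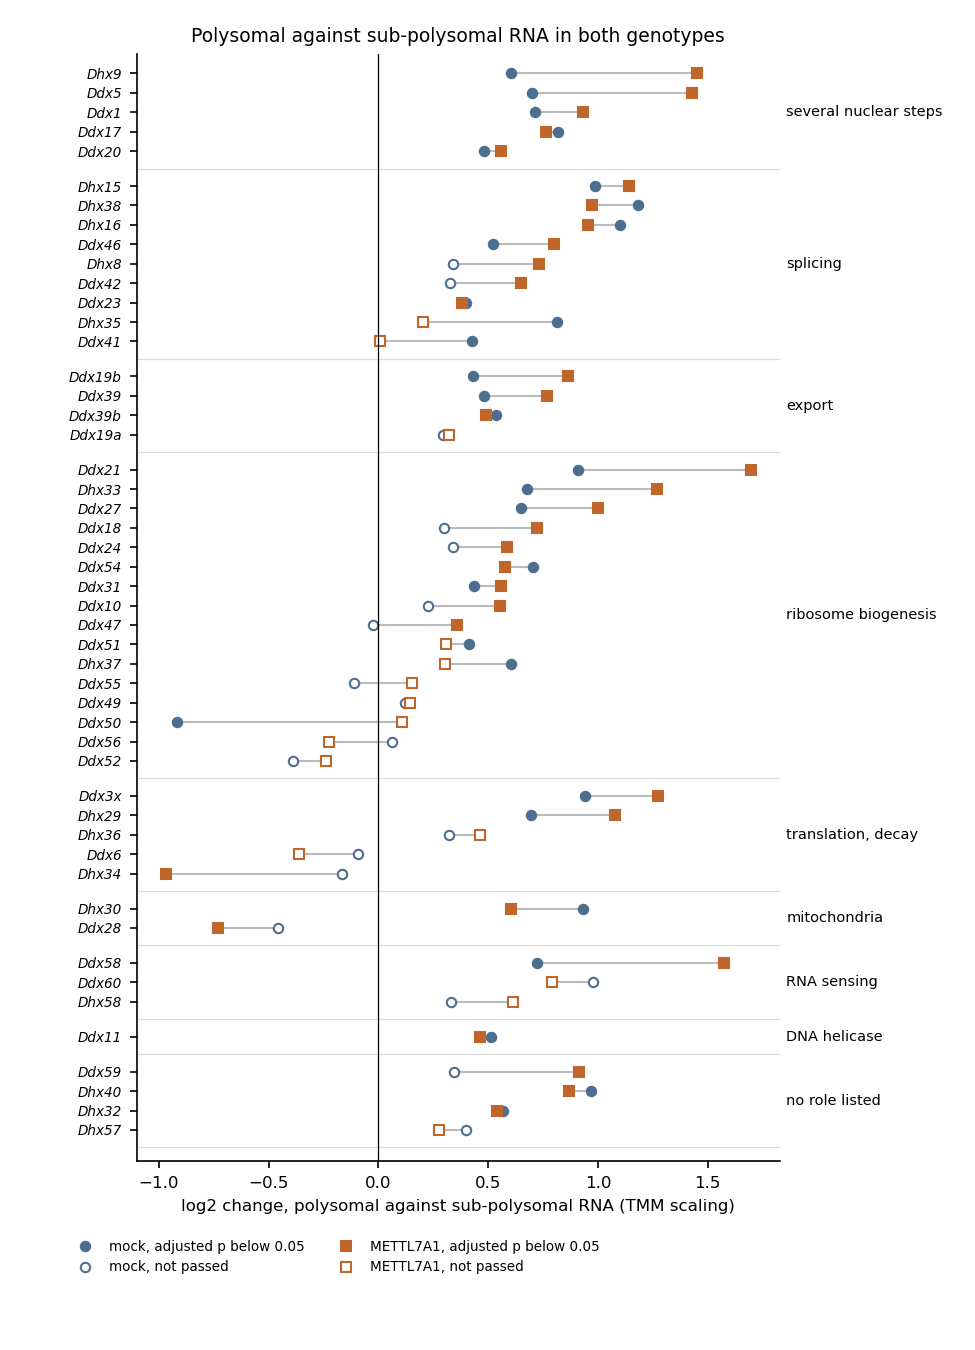
The log2 change from sub-polysomal to polysomal RNA for each of the 49 helicase mRNAs in mock (circles) and METTL7A1 cells (squares), by role, with filled symbols at an adjusted p below 0.05 and TMM scaling. Most lie to the right of 0 (medians 0.48 and 0.59), with Ddx50 at -0.92 in mock and Dhx34 at -0.97 in METTL7A1 cells. Actb scaling gave 20 higher and 5 lower with METTL7A1, and no share of all genes is given for it.

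METTL7A1 and mock cells were next compared within the sub-polysomal pool, where 13 of the 49 fell and 0 rose at an adjusted p below 0.05 with TMM scaling, whereas scaling to Actb gave 6 lower and 12 higher. With TMM scaling 14.5% of all genes were lower and 16.8% higher at an adjusted p below 0.05 in edgeR. These shares do not apply to the counts with Actb scaling, which therefore have no share of all genes to be set against. With edgeR 7 were higher and 16 lower at an unadjusted p below 0.05, and 2 were higher with DESeq2 and 1 with limma-voom at an adjusted p below 0.05. For these settings no share of all genes is given. The median log2 change of the 49 was -0.17, beside -0.0015 over all genes. It lay between -0.23 and -0.11 when 1 library was left out. With Actb scaling the median of all genes stood at 0.26 and that of the 49 at 0.09, since this scaling moves all genes by about the same amount. With TMM scaling, the splits were 3 higher and 9 lower without METTL7A1 sub-polysomal F, 2 and 10 without mock sub-polysomal B, 1 and 10 without mock sub-polysomal A, and 2 and 14 without mock polysomal A. Scaled to Actb, Ddx19b, Ddx24, Ddx46, Ddx47, Ddx58, Ddx59 and Dhx57 no longer passed. Leaving out any single library with TMM scaling kept 8 of the 13 below an adjusted p of 0.05, and Ddx19b, Ddx24, Ddx58, Ddx59 and Dhx57 lost it in at least 1 case. Offsets for GC content gave 0 higher and 12 lower with a median of -0.10, and 9 of these were among the 13 (without Ddx19b, Ddx24, Ddx58 and Dhx57). None of the 49 passed the stricter rule with edgeR, DESeq2 or limma-voom, where 2.76% of all genes did. In bulk RNA, fewer cells of a kind and less RNA per cell cannot be told apart. Total RNA was not among these libraries, so a fall in this pool alone does not separate a lower total level from a move between pools.

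The largest median fall was in the helicases of several nuclear steps, where 3 of 5 fell (median log2 -0.76). Ddx5 had 298, 240.5 and 285 CPM in mock and 141, 156 and 163 CPM in METTL7A1 sub-polysomal RNA. No METTL7A1 library reached a mock one, for a log2 change of -0.84 (standard error 0.17, 95% interval -1.18 to -0.49, edgeR's quasi-likelihood test, adjusted p = 0.000948). Dhx9 (RNA helicase A), which unwinds double-stranded RNA and RNA-DNA hybrids, had 89.2, 56.3 and 67.3 CPM in mock and 39.5, 34.2 and 42.6 CPM in METTL7A1 libraries. These too did not overlap (log2 -0.85, standard error 0.17, adjusted p = 0.000909, edgeR). Ddx1, of the tRNA ligase complex, had 113, 126 and 143 CPM in mock and 74.9, 74.2 and 77.2 CPM in METTL7A1 libraries. All 3 METTL7A1 values were lower (log2 -0.76, standard error 0.15, adjusted p = 0.000918, edgeR), and the log2 change was -0.50 with Actb scaling (adjusted p = 0.0224, edgeR). The paralogue of Ddx5, Ddx17 (p72), had 56.0 ± 1.63 CPM (SD, n = 3) and 62.4 ± 6.89 CPM (SD, n = 3), a log2 change of 0.15 that did not pass (adjusted p = 0.504, edgeR).

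Among the ribosome biogenesis helicases, 4 of 16 fell: Dhx33, Ddx50, Ddx47 and Ddx24. Dhx33 had 24.3, 32.1 and 25.9 CPM in mock and 13.6, 14.9 and 14.8 CPM in METTL7A1 libraries. The groups were apart, with a log2 change of -0.93 (standard error 0.16, adjusted p = 0.000311, edgeR). Ddx50, with the values given above, had a log2 change of -0.91 (standard error 0.13, 95% interval -1.18 to -0.64, adjusted p = 5.16e-05, edgeR), and the 3 METTL7A1 values lay below the mock ones. Ddx47 and Ddx24 had log2 changes of -0.50 and -0.45, each with all METTL7A1 libraries below all mock libraries. Scaled to Actb neither passed, at -0.25 for Ddx47 (adjusted p = 0.252, edgeR) and -0.18 for Ddx24 (adjusted p = 0.397, edgeR). With offsets for GC content Ddx47 passed at -0.33 and Ddx24 did not, at -0.26 (adjusted p = 0.285, edgeR). Ddx21 had a log2 change of -0.40 (adjusted p = 0.0503, edgeR) and did not pass, though its libraries did not overlap.

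Of the other roles, 2 of 9 splicing helicases fell, Dhx8 (Prp22) with log2 -0.80 and Ddx46 (Prp5) with log2 -0.65, and 1 of 4 tested export helicases, Ddx19b of the nuclear pore, with log2 -0.59. Scaled to Actb, Dhx8 passed at -0.54, while Ddx46 (-0.39, adjusted p = 0.0865, edgeR) and Ddx19b (-0.33, adjusted p = 0.217, edgeR) did not. Among 3 helicases of RNA sensing, Ddx58 fell from a mean of 9.01 CPM (SD 0.921, n = 3) to 5.39 CPM (SD 1.60, n = 3), for a log2 change of -0.77 (standard error 0.24, adjusted p = 0.0213, edgeR), without overlap. This was -0.52 without METTL7A1 sub-polysomal F (adjusted p = 0.114, edgeR) and -0.49 with Actb scaling (adjusted p = 0.151, edgeR), and the adjusted p was 0.0678 without mock sub-polysomal B and 0.0835 with GC offsets. None of 5 helicases of translation and decay and neither of the mitochondrial pair passed in edgeR. Ddx3x had a log2 change of -0.12 (95% interval -0.64 to 0.40). Of 4 tested genes with no role listed, Ddx59 and Dhx57 fell, with log2 changes of -0.96 (standard error 0.32, adjusted p = 0.0282, edgeR) and -0.74 (standard error 0.27, adjusted p = 0.0418, edgeR). Ddx59 rested on few reads and overlapped, with 11.9, 5.35 and 7.11 CPM in mock and 5.97, 2.73 and 3.35 CPM in METTL7A1 libraries. Its adjusted p was 0.0891 without mock sub-polysomal A, 0.0562 without C, 0.130 without METTL7A1 sub-polysomal E, 0.0899 without F and 0.142 with Actb scaling. Dhx57 had a log2 change of -0.47 without METTL7A1 sub-polysomal F (adjusted p = 0.194, edgeR), and its adjusted p over all settings reached 0.242 (Actb scaling).

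Mitochondrial transcripts made up 7.36% ± 0.985 (SD, n = 3) of the mock and 5.79% ± 1.70 (SD, n = 3) of the METTL7A1 sub-polysomal counts, with overlapping libraries. The nuclear RNA Neat1 rose with METTL7A1, by a log2 of 0.68 in sub-polysomal (adjusted p = 0.0406, edgeR, libraries overlapping) and 0.74 in polysomal RNA (adjusted p = 0.0495, edgeR, all 3 METTL7A1 libraries above mock). Malat1 passed in neither pool, with 0.82 (adjusted p = 0.0589, edgeR) and 0.68 (adjusted p = 0.141, edgeR). A link of these RNAs to the helicase mRNAs was not tested.

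**Figure D3:**
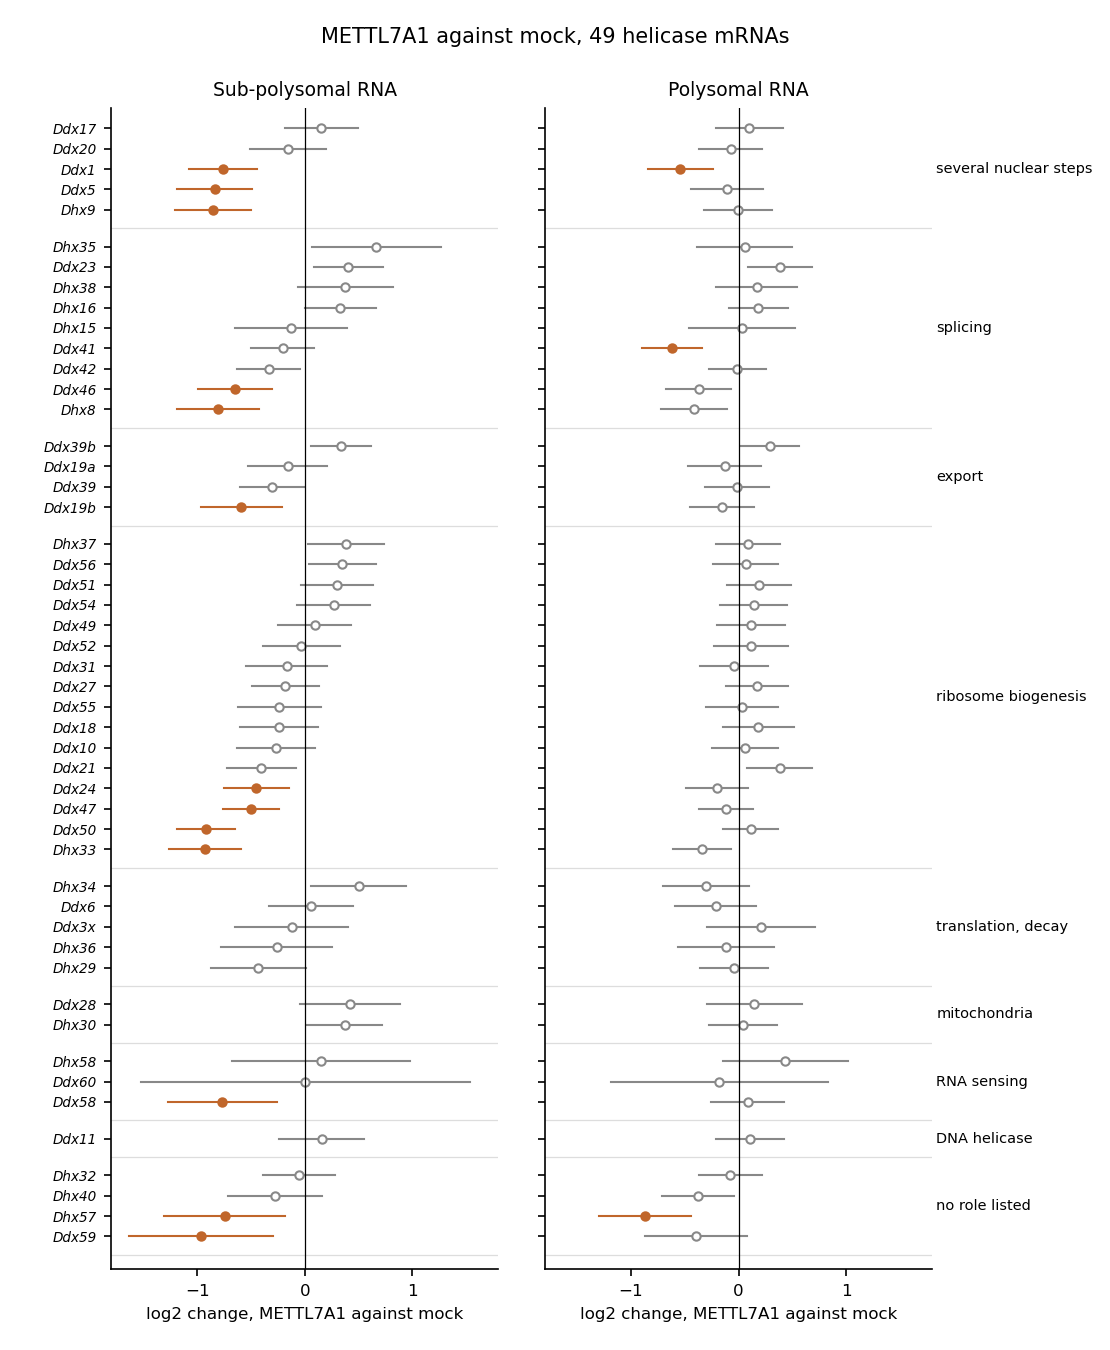
The log2 change from mock to METTL7A1 cells for each of the 49 helicase mRNAs in sub-polysomal (left) and polysomal RNA (right), with 95% confidence intervals, TMM scaling and filled points at an adjusted p below 0.05. In sub-polysomal RNA 13 lie below 0 with a filled point, and in polysomal RNA 3. Scaled to Actb (not drawn), 6 passed below 0 and 12 above 0 in sub-polysomal RNA, with no share of all genes given.

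In polysomal RNA the same comparison of genotypes found little. Of the 49, 3 fell (all genes 8.28%) and 0 rose (all genes 9.69%) at an adjusted p below 0.05. The median log2 change of the 49 was 0.03, beside -0.01 over all genes. It lay between -0.03 and 0.07 when 1 library was left out, and its highest value over all settings was 0.12. With edgeR 3 were higher and 7 lower at an unadjusted p below 0.05, and DESeq2 and limma-voom gave 0 higher at an adjusted p below 0.05. For these settings too no share of all genes is given. None passed the stricter rule with any of the 3 tools, where 2.13% of all genes did. The counts moved with mock libraries: 2 rose and 3 fell without mock polysomal A, and 0 rose and 5 fell without mock polysomal C. Offsets for GC content, also added late, gave 1 higher and 4 lower.

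The 3 that fell were Dhx57, Ddx41 and Ddx1. Ddx41, a helicase of the spliceosome, had 102, 91.3 and 92.9 CPM in mock and 57.1, 69.9 and 59.1 CPM in METTL7A1 polysomal RNA. No METTL7A1 value reached a mock one, for a log2 change of -0.62 (standard error 0.13, adjusted p = 0.00292, edgeR). Dhx57 had 10.7, 11.8 and 9.80 CPM in mock and 5.34, 5.65 and 6.74 CPM in METTL7A1 libraries, again apart (log2 -0.87, standard error 0.20, adjusted p = 0.00600, edgeR). Ddx1 had 257, 182 and 189.7 CPM in mock and 141, 147 and 145 CPM in METTL7A1 libraries. Mock A stood high, and all METTL7A1 values were lower (log2 -0.54, standard error 0.14, adjusted p = 0.0126, edgeR). The adjusted p of Ddx1 was 0.0540 without METTL7A1 polysomal D and 0.0700 with Actb scaling.

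Ddx5 had 562, 422 and 354 CPM in mock and 407, 430.2 and 403 CPM in METTL7A1 polysomal RNA. The mock libraries spanned the METTL7A1 ones, and the log2 change of -0.11 did not pass (95% interval -0.45 to 0.23, adjusted p = 0.689, edgeR). Dhx9 had means of 106 CPM in both genotypes (SD 11.8 in mock and 7.73 in METTL7A1, n = 3). Ddx21 had a log2 change of 0.38 (adjusted p = 0.0734, edgeR), with all 3 METTL7A1 values above the mock ones.

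**Figure D4:**
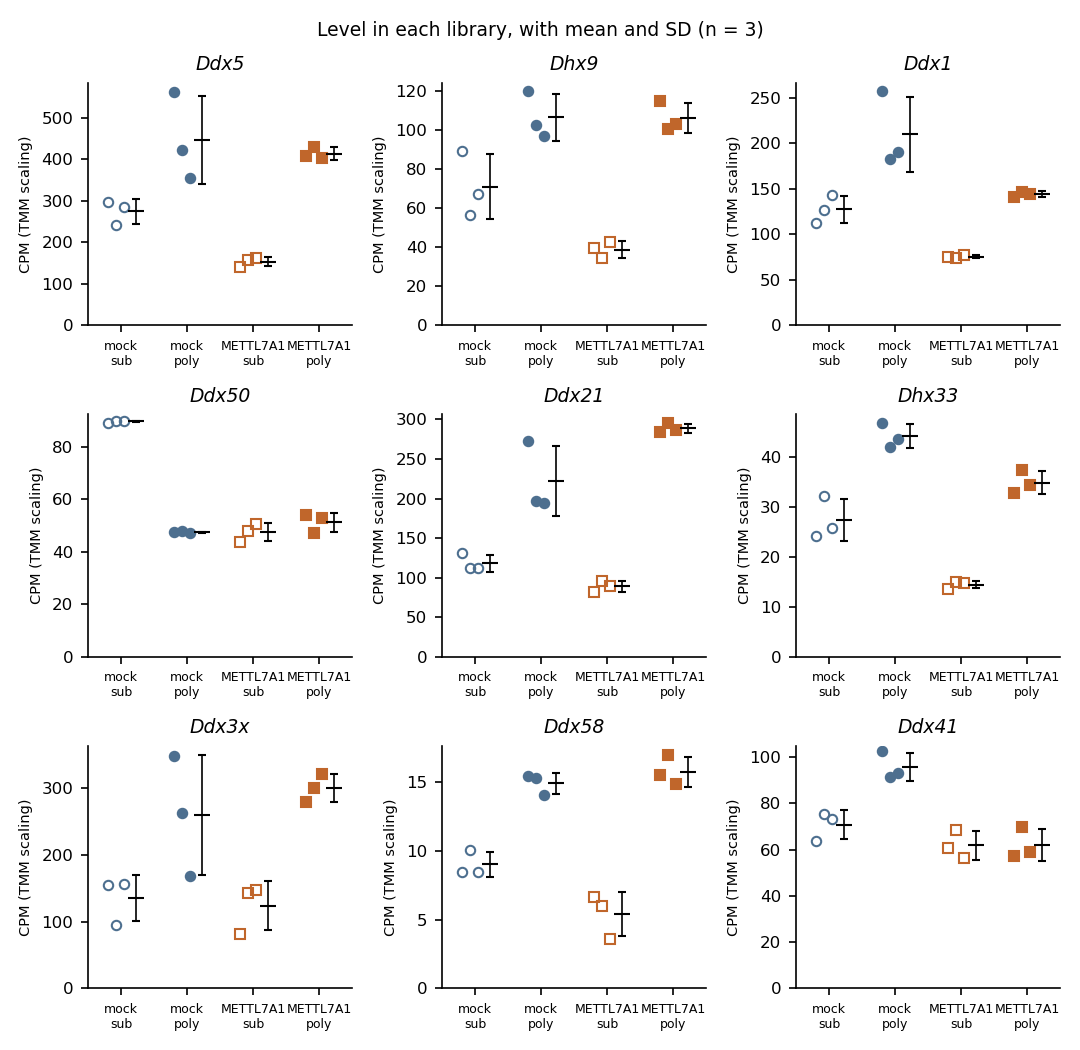
Level of 9 helicase mRNAs in each library (CPM after TMM scaling, linear axes from 0), with the mean and SD of each group of 3 as a bar. Ddx50 stands at 89.2 to 89.8 CPM in mock sub-polysomal RNA and at 43.8 to 54.0 CPM in the other 3 groups, and Ddx5 at 141 to 163 CPM in METTL7A1 sub-polysomal RNA.

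Whether the genotypes differed in how these mRNAs divided between the pools was tested as a shift, the polysomal to sub-polysomal log2 change in METTL7A1 cells minus that in mock cells. No helicase passed: 0 of 49 had an adjusted p below 0.05 with edgeR, as did 0% of all genes, and 0 passed the stricter rule. At an unadjusted p below 0.05 there were 7 with a shift towards polysomes (all genes 6.7%) and 2 with a shift away (all genes 8.93%). DESeq2 gave 4 towards polysomes at an adjusted p below 0.05, limma-voom 0, and edgeR without mock polysomal A 4. The shares of all genes given here are those of edgeR with all libraries, not of these settings. The median shift of the 49 was 0.14, beside -0.0079 over all genes, and -0.0092 with Actb scaling, which moved the median of all genes to -0.17. Leaving out 1 library moved the median of the 49 between 0.048 (without mock polysomal C) and 0.22 (without mock polysomal A).

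The largest shift was that of Ddx50, with 1.03 on the log2 scale (standard error 0.18, 95% interval 0.65 to 1.40). Its p of 1.54e-05 had 1 smaller p among 12224 genes, and the adjusted p was 0.0939 (edgeR). The pools were apart in mock cells, by the high sub-polysomal values, and overlapped in METTL7A1 cells. Over other settings the adjusted p of Ddx50 ran from 0.000214 (DESeq2) to 0.353, with 0.0134 when no filter on low counts was used and 0.0263 without mock polysomal A, while the log2 shift kept within 0.88 to 1.08. Ddx58 had a shift of 0.85 (95% interval 0.24 to 1.46, adjusted p = 0.174, edgeR) and Dhx9 one of 0.85 (95% interval 0.38 to 1.32, adjusted p = 0.129, edgeR). Ddx21 had 0.79 (95% interval 0.35 to 1.23, adjusted p = 0.129, edgeR) and Ddx5 0.73 (95% interval 0.24 to 1.21, adjusted p = 0.146, edgeR). Dhx9, Ddx21 and Ddx5 had adjusted p-values of 0.0219, 0.0179 and 0.0455 with DESeq2, and of 0.0385, 0.0263 and 0.0317 without mock polysomal A. For each of these genes, 18 of 20 other settings gave no adjusted p below 0.05. The highest adjusted p over these settings was 0.353 for Dhx9, 0.353 for Ddx21 and 0.354 for Ddx5.

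The 2 with a shift away at an unadjusted p below 0.05 were Dhx34 at -0.80 (95% interval -1.40 to -0.21, adjusted p = 0.185, edgeR) and Ddx41 at -0.42 (95% interval -0.82 to -0.02, adjusted p = 0.302, edgeR). Dhx34 combined higher sub-polysomal values in METTL7A1 cells (13.7 ± 1.64 against 9.49 ± 2.15 CPM, SD, n = 3) with lower polysomal ones (7.07 ± 0.879 against 8.66 ± 1.000 CPM, SD, n = 3), neither of which passed on its own. With offsets for GC content the shifts of Dhx34 and Ddx41 were -0.41 and -0.17 (adjusted p = 0.597 and 0.788, edgeR), and 0 had a shift away at an unadjusted p below 0.05. Over all settings the adjusted p ran from 0.110 to 0.597 for Dhx34 and from 0.180 to 0.788 for Ddx41. Ddx3x had a shift of 0.33 (95% interval -0.39 to 1.05), which was 0.10 without mock polysomal C, 0.11 without METTL7A1 sub-polysomal D, 0.21 without mock sub-polysomal C, 0.53 without mock sub-polysomal B and 0.60 without mock polysomal A. Across the 49 mRNAs the shift ran against GC content with Pearson's r of -0.53 (n = 49), beside -0.32 over 12157 genes with a GC content, a description over genes that share the same libraries.

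**Figure D5:**
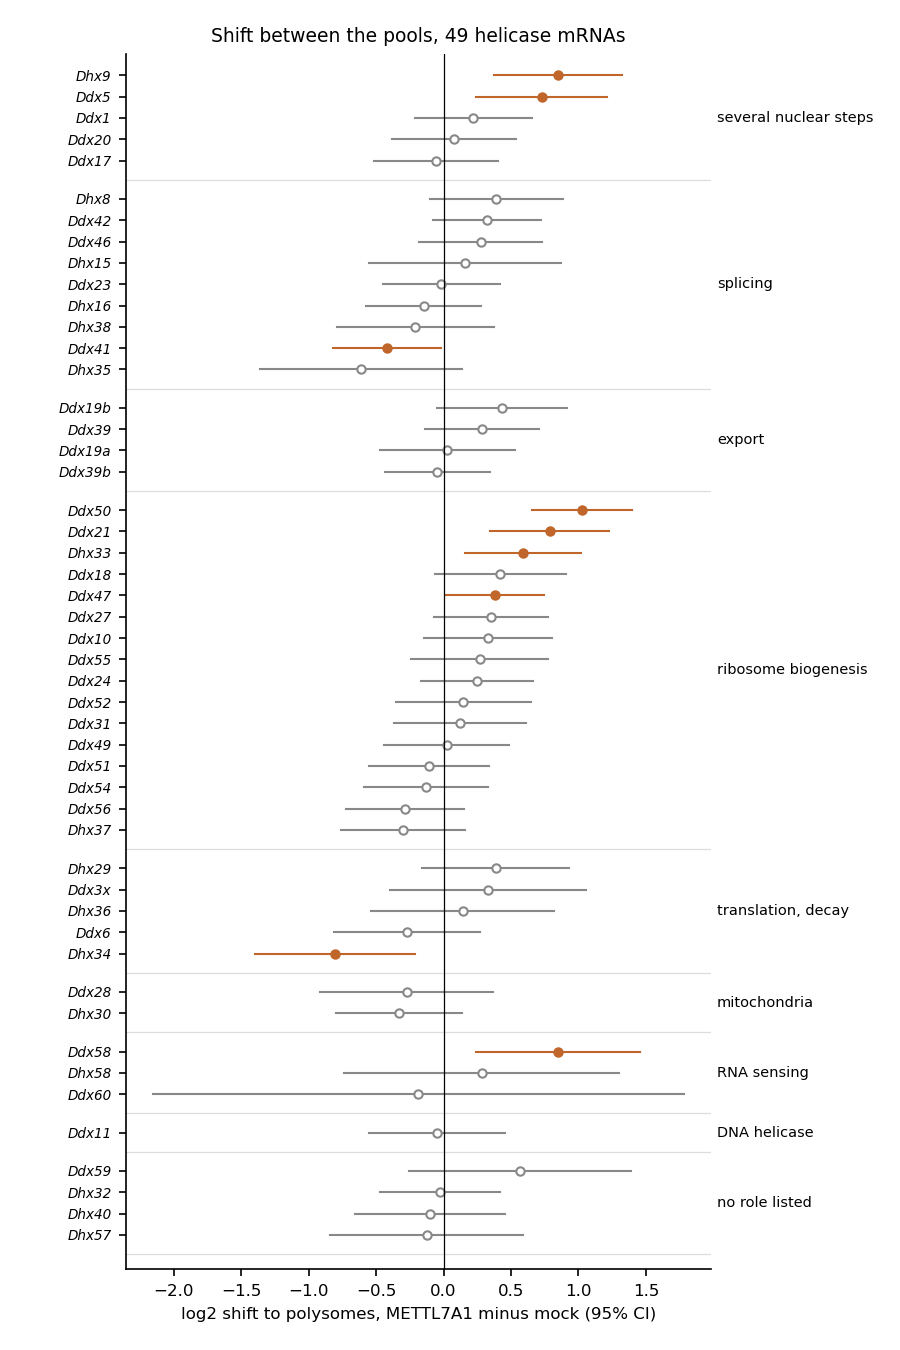
The log2 shift to polysomes (METTL7A1 minus mock) of each of the 49 helicase mRNAs with its 95% confidence interval, by role, with filled points at an unadjusted p below 0.05. Ddx50 lies farthest right at 1.03 and Dhx34 farthest left at -0.80, and 0 of 49 had an adjusted p below 0.05 with edgeR.

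The values of close paralogues are given side by side, and a difference within a pair was not tested. In sub-polysomal RNA the log2 changes between genotypes were -0.84 for Ddx5 and 0.15 for Ddx17, -0.30 for Ddx39 and 0.34 for Ddx39b, and -0.59 for Ddx19b and -0.16 for Ddx19a. Only Ddx5 and Ddx19b passed, with adjusted p-values of 0.504 for Ddx17, 0.114 for Ddx39, 0.0613 for Ddx39b and 0.523 for Ddx19a (edgeR). Their shifts, of which none passed, were 0.73 and -0.05, 0.29 and -0.04, and 0.43 and 0.03. No run of 50 bases was shared within the pairs Ddx5 and Ddx17, Ddx21 and Ddx50, or Ddx39 and Ddx39b. Ddx19a and Ddx19b shared 831 such runs, 33.3% of those of Ddx19a and 12.4% of those of Ddx19b, so reads may have been lost or exchanged there. Ddx5 shared 22.7% of its runs with other genes, mostly the pseudogene Gm12183 (76 counts in all libraries). Ddx50 shared 17.3%, with Gm8228 as the main partner (21 counts). Among all members the share was highest for Ddx18, at 62.7%, with Gm16433 as the main partner (32 counts). On opposite strands, exon bases were shared by Ddx49 with Homer3 (874), Ddx39 with Adgre5 (807), Ddx54 with Gm43579 (783), Ddx41 with Gm46416 (306), Dhx57 with Gm50087 (255) and Morn2 (135), Dhx32 with Bccip (204) and Ddx59 with 9230116N13Rik (153), among others, and no source says if strand was used when reads were counted.

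RNA helicases with other names gave a comparison. Of 23 listed, 20 were tested. Between pools, mock cells had 10 higher and 2 lower in polysomal RNA and METTL7A1 cells 14 and 2, beside 29 and 1, and 32 and 2, of the 49 Ddx and Dhx mRNAs. Between genotypes, 0 rose and 3 fell in sub-polysomal RNA (Ascc3, Dicer1 and Eif4a2), where 16.8% of all genes rose and 14.5% fell. In polysomal RNA 1 rose and 2 fell, where 9.69% of all genes rose and 8.28% fell. Each of these counts and shares is at an adjusted p below 0.05 with edgeR. None of the 20 had a shift at that level. Eif4a2, an initiation helicase, was lower in polysomal RNA in both genotypes, with log2 changes of -0.96 in mock and -0.52 in METTL7A1 cells.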

How the data were processed

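The authors deposited counts per gene, made with bcl2fastq 2.20.0.422, BBDuk, STAR 2.5.3a on mm10 and featureCounts. Strand setting and handling of multiply mapped reads are not stated. Genes reaching 1 CPM in 3 or more libraries went into edgeR 4.0.16 (TMM scaling, quasi-likelihood test) in R 4.3.3, with Benjamini-Hochberg adjustment across 12224 genes. DESeq2 1.42.0 and limma 3.58.1 served as other tools, and figures were drawn in Python 3.11.15 with matplotlib 3.10.9. The test was tested on simulated data. Members and lists were chosen with earlier results of these data known. Genes named in the text were the largest changes of each comparison, those past a rule, and Ddx5 and Ddx3x, with paralogues and examples of a role beside them. Ddx39a is listed as Ddx39. Alternatives changed tool, scaling (RLE, Actb), filter and fit, or left out each library. Offsets for GC content were chosen after seeing the data. Levels between genes were compared per kb of the counted exons, and intervals on single libraries cover counting error only.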

Additional observations from a re-analysis of the deposited data

How the results depend on the processing

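No share of all genes is given for counts at other settings. With TMM scaling replaced by Actb, sub-polysomal RNA gave 12 higher and 6 lower helicase mRNAs in METTL7A1 cells (median log2 0.0853). The stricter rule between pools in METTL7A1 cells called 0 with Actb scaling in place of 2 (1 with GC offsets). The median between pools in METTL7A1 cells was then 0.34. In polysomal RNA the log2 change of Ddx5 was 0.0016 with Actb and 0.0901 without mock polysomal A (lowest -0.252, without C), and that of Ddx3x -0.0268 without mock polysomal C (highest 0.476, without A). The count past an adjusted p below 0.05 there was 5 without mock polysomal A, 5 without C and 5 with GC offsets. In sub-polysomal RNA Ddx3x had 0.10 with Actb, 0.0016 without mock sub-polysomal C, 0.10 without METTL7A1 sub-polysomal D and 0.0916 with GC offsets (lowest -0.326, without mock sub-polysomal B). When only the compared groups were fitted, the adjusted p was 0.0574 for Ddx59, 0.0540 for Ddx58 and 0.0757 for Dhx57 (edgeR). The shift had 4 past an adjusted p below 0.05 with DESeq2 and 4 without mock polysomal A. With the letter as a block, the Ddx50 shift was 1.03 (adjusted p = 0.0969, edgeR). With 3 libraries per group, small shifts cannot be told apart from library spread.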
